A study of Danio rerio with 12 samples.

Results

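Transcripts of the zebrafish testis were compared with those of the male body from which the testes had been removed. The comparison rests on 6 of the 12 arrays of the study, 3 of testis and 3 of male body, and asks which functions the testis adds to the male soma and which it lacks. The animals were wild-type full siblings of the AB laboratory strain. Their ages ran between 4 and 12 months, and males had been kept apart from females for 5 days before dissection. Each testis array was hybridised with RNA from the pair of testes of an individual male, and each male body array with RNA from the remaining carcass of an individual male, so that muscle, liver, gut, skin, skeleton, nervous system, eyes, blood and kidney all contributed to the second sample. No genotype or treatment separated the groups.

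The testis is the organ of spermatogenesis. In fish, spermatogonia divide by mitosis inside cysts of Sertoli cells, enter meiosis as spermatocytes, and are remodelled as haploid spermatids into sperm with a compact nucleus and a motile flagellum, a specialised cilium. Leydig cells between the cysts make androgens, and small RNAs bound to Piwi proteins keep transposons silent in the germ cells.

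Each probe set, a group of short probes against the same transcript, gives a signal that is scaled so that all arrays share the same trimmed mean. Signals below 32 were raised to 32, and 14965 of 15502 probe sets were above this floor on at least 1 of the 6 arrays and were tested with limma. Differences are testis minus male body on the log2 scale, a call is an adjusted p under 0.05 over all probe sets tested (Benjamini-Hochberg), and a gene is represented by its brightest probe set. Every gene described as higher or lower passed this test unless a loss of the call is stated. Signals in the text are as deposited, in arbitrary units, for arrays 1, 2 and 3 in that order, and are also printed below the floor. Against a group whose 3 arrays lay at the floor the fold is a lower bound (at least), and with 1 or 2 arrays at the floor its size depends on the floor.

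Testis and male body differed across much of the array. Of the 14965 probe sets, 4366 (29.2%) were higher in the testis and 4475 (29.9%) were lower, and of the 8675 named genes tested, 3082 (35.5%) were higher and 2540 (29.3%) were lower. At a fold of at least 4 the counts were 1460 higher and 1320 lower, and at a fold of at least 64 they were 65 and 74. The median difference over all probe sets was -0.12. Arrays correlated at 0.952 to 0.967 within a group and 0.584 to 0.636 between groups, across probe sets on the log2 scale. The testis arrays had medians of 200 to 208 and 14.1% to 17.9% of their probe sets at the floor, against 189.7 to 193.4 and 10.4% to 11.8% on the male body arrays, and the 100 brightest probe sets held 13.6% to 14.7% of the signal in testis and 19.3% to 21.7% in male body.

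The labels were checked with genes that mark cell types. The summed signal of the spermatocyte markers hormad1, sycp1 and sycp3 lay between 18989 and 21985 on the testis arrays and between 83.4 and 110.0 on the male body arrays, and that of 6 spermatid and sperm markers between 20636 and 29225 in testis and 272.5 and 411.9 in male body. Conversely, 9 markers of skeletal muscle summed to between 2252 and 2415 in testis, against 201086 to 279029 in male body. Both labels held on every array. Some somatic signal was also present on the testis arrays. The markers of exocrine pancreas summed to between 4710 and 13500 there (23619 to 29207 in male body), those of liver to between 4473 and 12150 (101575 to 125250), those of skin to between 4528 and 8233 (36761 to 39160) and those of red blood cells to between 7317 and 9819 (19699 to 35244), whereas 4 brain markers reached only 162.4 to 308.8 (9168 to 11571) and 2 intestine markers 37 to 55.2 (11584 to 15985). Because these were bulk samples, fewer cells of a type and less RNA per cell cannot be told apart in any of the differences below.

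**Figure D1:**
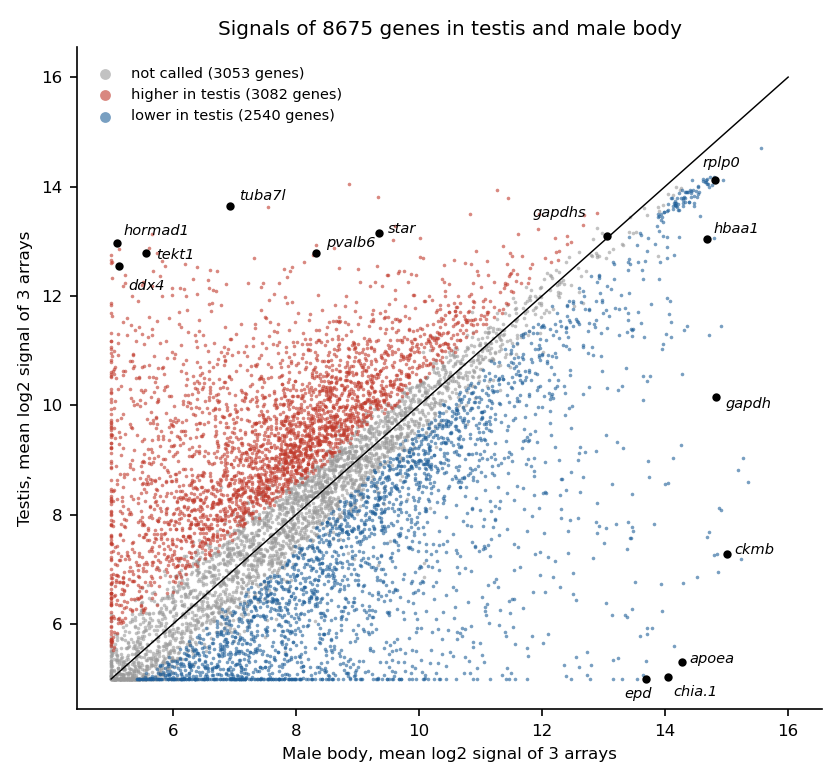
Mean log2 signal of 8675 genes in testis (vertical axis) against male body (horizontal axis), 3 arrays each, with 3082 genes higher in testis in red, 2540 lower in blue and 3053 not called in grey. The line marks equal signals, and the named points include hormad1 and ddx4 near the floor of the male body axis, chia.1 near the floor of the testis axis and epd at it.

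Genes with a shared function or tissue were grouped in 30 lists, described by counts that are set beside the shares of all genes called, 35.5% higher and 29.3% lower. The 10 lists with the highest medians covered meiosis, germ cells and small RNAs, dyneins, other axonemal parts, intraflagellar transport, sperm, mitosis, DNA replication, DNA repair and the oocyte. The 10 lists with the lowest medians covered intestine, skeletal muscle, liver, eye, heart, skin, pancreas, red blood cells, bone and brain. Where a list had no call in a direction, limma gave 0 members at an unadjusted p under 0.05 in that direction as well. With so many probe sets called, that limit is not far from the limit for a call, so this adds little. A gene at the floor on all 3 arrays of a group passed the filter only through the other group. It could therefore be called in 1 direction only. In testis this held for 416 of the 8675 genes, with 6 of 21 intestine, 14 of 109 liver and 9 of 80 skeletal muscle genes. In male body it held for 145 of the 8675 genes, with 6 of 19 dynein and 8 of 58 intraflagellar transport genes. From 16 lists, 101 names caught by a symbol pattern had been left out with the values seen. In the skin, eye, liver, muscle and immune lists some of them were higher. So were epb41l5 of the red cell list, mfap1 of the bone list and map1lc3c of the brain list. Lower names left out were atrn of DNA repair, arl6ip5a of intraflagellar transport, and ckap4 and pttg1ipa of mitosis, among others.

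**Figure D2:**
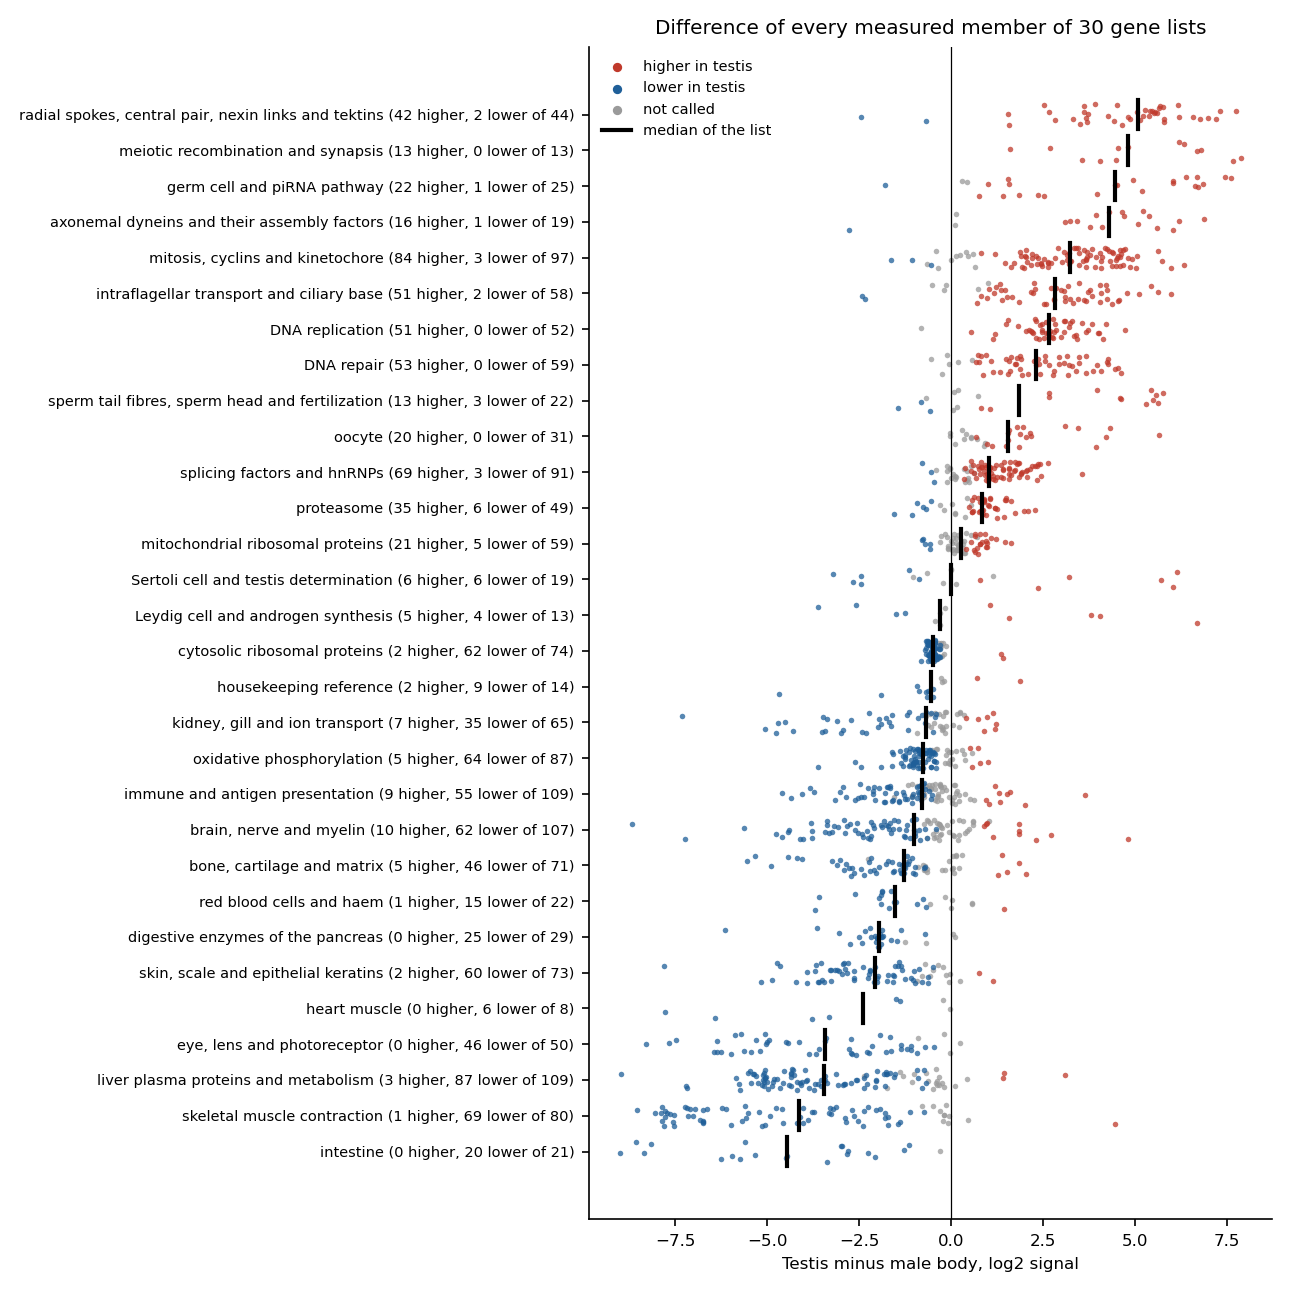
Testis minus male body in log2 signal (horizontal axis) for every measured member of the 30 lists, with 1 point per gene, red where higher in testis, blue where lower and grey where not called, and the list median as a black bar. The medians run from 5.08 for radial spokes and tektins to -4.48 for the intestine.

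The list of meiotic recombination and synapsis had 13 genes, and each of them was higher in the testis (100%), 12 of them by at least 4-fold, with a median log2 difference of 4.80. The groups did not overlap for any of them. With a floor of 100, 12 were higher and the call of brca2 was lost. The count was also 12 when each gene was represented by its probe set with the lowest mean signal. The gene sycp3, of the lateral element of the synaptonemal complex, which joins homologous chromosomes in meiotic prophase, had signals of 7090.0, 4958 and 7622 in testis and 7.1, 23.2 and 23.3 in male body (at least 201-fold higher, adjusted p = 4.3e-07). For syce2, of the central element, signals were 4885, 6048 and 6064 in testis and 55.4, 47 and 51.8 in male body (109.9-fold higher). The gene sycp1, for the transverse filament between them, had 5777, 6974 and 5389.6 in testis and 59.2, 60.7 and 56.2 in male body (102-fold higher). For these 3 genes every testis array was above every male body array by a wide margin.

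The meiotic cohesin gene rad21l1 had 2400.3, 2277 and 3076 in testis and 32, 15.5 and 8.3 in male body (at least 80.1-fold higher), with all male body arrays at or under the floor. The gene hormad1, whose product marks unpaired chromosome axes, had a log2 difference of 7.87, the largest increase of any named gene. The smallest differences in the list were 3.54 for hsf2bp, whose mouse counterpart acts in meiotic recombination, 2.67 for topbp1, an activator of the replication checkpoint, and 1.58 for brca2, which acts in the repair of DNA breaks.

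Among 25 genes of germ cells and of the Piwi-interacting RNA pathway, 22 were higher (88.0%), 1 was lower and 2 were not called, with a median of 4.45. The higher count was 20 with a floor of 64 or 100, and 21 with the probe set of lowest mean signal for each gene. The Piwi partner gene gtsf1 had 6490.4, 7863 and 4915 in testis and 8.6, 32.7 and 6.4 in male body (196-fold higher). The germ cell RNA helicase gene ddx4, known as vasa, had 6990.4, 5647 and 5517 in testis and 41.8, 16 and 5.4 in male body (172-fold higher). In male body 2 of the 3 arrays were under the floor for each of them. The Piwi gene piwil1 had 5180.4, 3469 and 5810.1 in testis and 30.7, 56.7 and 52 in male body (103-fold higher). The gene pld6, whose counterparts in mouse and fly act in the making of piRNAs at mitochondria, was at least 114-fold higher. The RNA-binding protein gene dazl and the germ granule gene tdrd7a had log2 differences of 6.04 and 6.38.

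Of 6 spermatogonia markers 4 were higher, among them ddx4 and piwil1 with the large differences given above. The other markers of early germ cells differed less. For dnd1, whose product protects germ cell messages from microRNAs in zebrafish, signals were 1087, 945 and 846 in testis and 183, 214 and 161 in male body (5.16-fold higher). The gene nanos3, needed for the survival of primordial germ cells, was dim with 68.1, 76.1 and 62.5 in testis and 36.5, 22.3 and 35.5 in male body (1.98-fold higher). The stem cell factor genes pou5f3 and sall4 were not called, with log2 differences of 0.43 (adjusted p = 0.12) and 0.30 (adjusted p = 0.18), but pou5f3 was called higher under quantile normalization (0.79). The exception in direction was nanos1, a regulator of translation from the same family as nanos3, with 79.9, 79.8 and 95.1 in testis and 240.1, 337 and 327 in male body (3.52-fold lower, adjusted p = 0.00037). The marker zbtb16a, the counterpart of a mammalian spermatogonial stem cell gene, was also lower (-1.35), but was not called without testis array 1 or 2 or male body array 3 (log2 differences of -1.36 to -0.88 then).

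**Figure D3:**
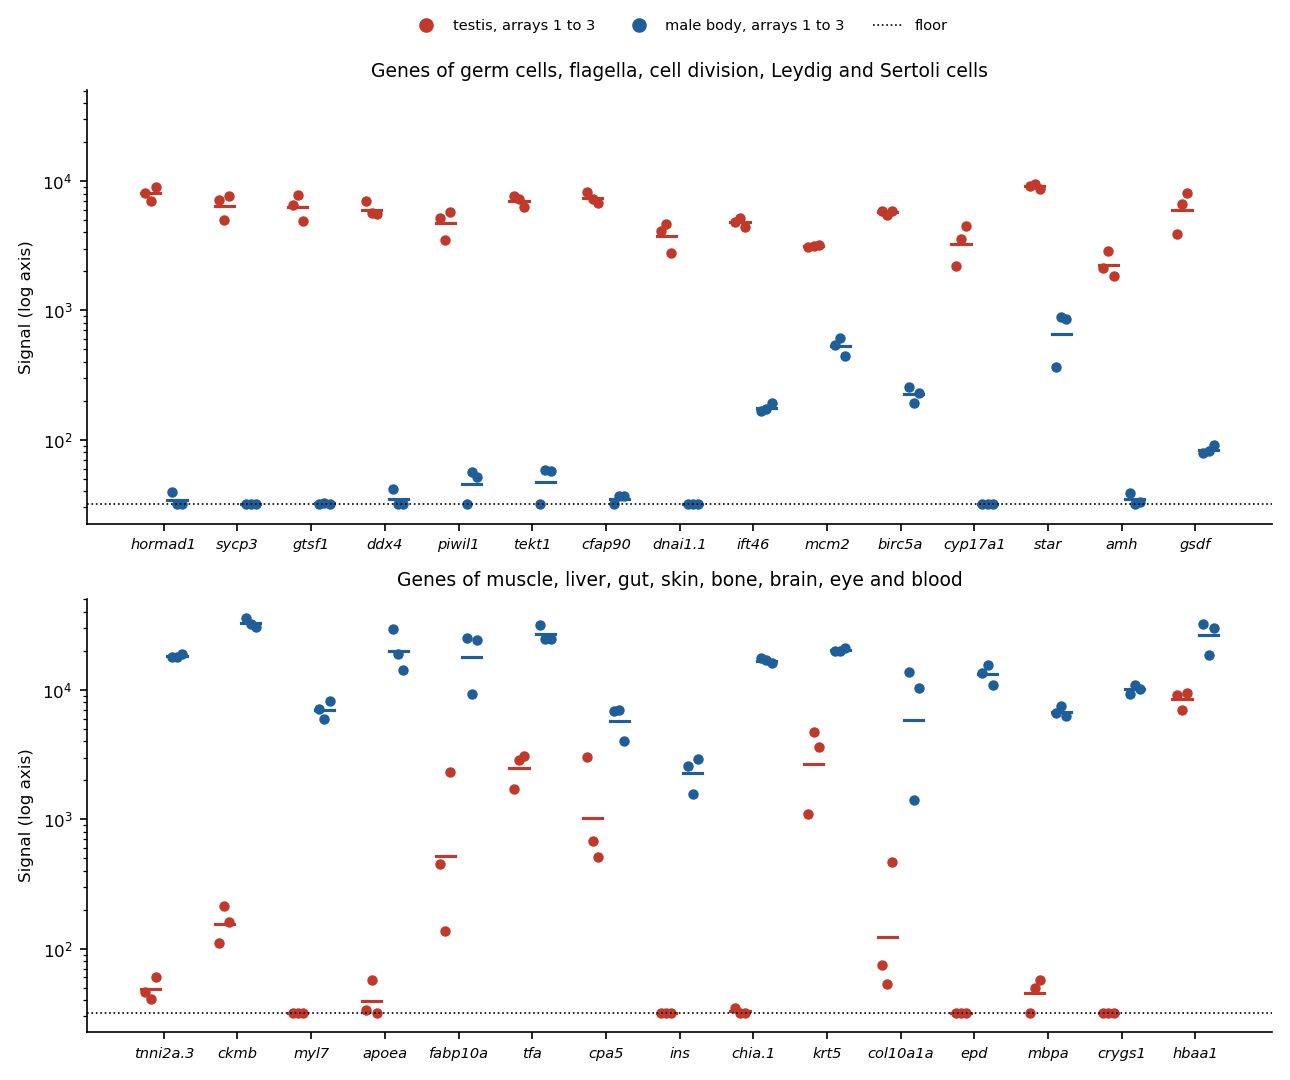
Signal on each of the 3 testis arrays (red, left) and 3 male body arrays (blue, right) for 15 genes of the testis (top) and 15 genes of somatic tissues (bottom), on a log axis with the floor of 32 dotted and the bars at the geometric mean. Each gene of the top row is higher on every testis array and each gene of the bottom row is lower on every testis array.

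The list with the highest median was that of the flagellum. Of 44 genes for radial spokes, the central pair, nexin links, tektins and other axonemal parts, 42 were higher (95.5%) and 2 were lower, with a median of 5.08. For the ciliary protein gene cfap90, signals were 8264, 7299 and 6779.9 in testis and 14.4, 36.5 and 36.9 in male body (212-fold higher, log2 difference 7.73 ± 0.16 SE). For tekt1, for a filament inside the doublet microtubules, signals were 7623, 7269 and 6249 in testis and 10, 58.7 and 57.4 in male body (148-fold higher). The gene spag6, of the central pair, had 4731, 4723 and 4123 in testis and 123, 70.6 and 104 in male body (46.7-fold higher). The testis arrays were close to each other for all 3 genes. The axonemal genes cfap299, cfap52 and enkur were 159-fold, 126-fold and 94.7-fold higher. Other members kept a signal above the floor on every male body array. The centrin gene cetn4 had 5395, 4885 and 5428 in testis and 312, 188 and 215 in male body (22.5-fold higher), and cfap20 had 7591, 7354 and 7604 in testis and 496, 404 and 299.8 in male body (19.2-fold higher).

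Of 19 genes for axonemal dyneins, the motors that bend the flagellum, and for the factors that assemble them in the cytoplasm, 16 were higher (84.2%), 1 was lower and 2 were not called, with a median of 4.28. The outer arm intermediate chain gene dnai1.1 had 4091, 4667 and 2785 in testis and 20.4, 11.7 and 21 in male body (at least 118-fold higher). For dnai2a, for the partner chain, signals were 3024, 2232 and 1846 in testis and 10.3, 6.2 and 4.9 in male body (at least 72.5-fold higher). The male body arrays were under the floor for both. The docking complex gene odad4 was at least 65.5-fold higher, and the assembly factor gene dnaaf19 had 3267, 2934 and 2430.3 in testis and 77.3, 66.5 and 63.1 in male body (41.6-fold higher). The gene ccdc39, for part of the ruler that spaces dynein arms along the axoneme, differed by 4.28.

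The exceptions among axonemal genes were few. For spag1a, related to a mammalian dynein assembly factor, signals were 73.1, 163 and 111 in testis and 562, 750.5 and 1020.5 in male body (6.89-fold lower, adjusted p = 0.00035). The gene tppp3, for a tubulin polymerization promoting protein, had 70.5, 144 and 154 in testis and 302, 766 and 1136 in male body (5.52-fold lower). Both were lower on every testis array than on any male body array. The gene cfap100 was near the floor, with 35.4, 35.3 and 16.9 in testis and 68.6, 38.5 and 64.2 in male body, and was not called lower without testis array 1, 2 or 3 or male body array 1 or 3 (log2 differences of -0.72 to -0.54 then). The heavy chain gene dnah9 (0.13) and the light chain gene dnali1 (0.09) were near the floor on all arrays and not called.

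Of 22 genes for the fibres of the sperm tail, the sperm head and fertilization, 13 were higher (59.1%), 3 were lower and 6 were not called, with a median of 1.84. The spermatogenesis-associated gene spata4 had 4609.5, 4841 and 1703 in testis and 150.1, 39.5 and 54.1 in male body (49.1-fold higher), with testis array 3 below the other testis arrays. The gene dcst1, whose counterparts are needed for fertilization in fly and mouse, had 1904, 2067 and 1471 in testis and 5.3, 50.7 and 40.6 in male body (44.5-fold higher). The outer dense fibre gene odf3l2a was at least 39.5-fold higher. The sperm tail and radial spoke gene ropn1l had 5917, 6253 and 4843 in testis and 102, 88.7 and 129 in male body (53.5-fold higher). A few genes of this list ran the other way. The gene septin12, whose mammalian counterpart forms a ring in the sperm tail, was 2.75-fold lower, tex264a differed by -0.57, and spata13 by -0.82. The gene spata13 was not called without testis array 1 or 3 or male body array 1 or 2 (log2 differences of -0.87 to -0.63 then), and the count of lower genes fell to 1 without testis array 1 or male body array 2. For gapdhs, named after the sperm isoform of a glycolytic enzyme in mammals, signals were 8579, 8680.4 and 8969.8 in testis and 9451, 8456 and 7664 in male body and was not called as deposited (log2 difference 0.04) but was called higher under quantile normalization (0.83).

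Intraflagellar transport, the traffic of material along a growing axoneme, and the base of the cilium were represented by 58 genes, of which 51 were higher (87.9%), 2 were lower and 5 were not called, with a median of 2.82. The transport gene ift46 had 4802, 5188 and 4431 in testis and 168, 172 and 191 in male body (27.1-fold higher). Its partner ift56 had 5624, 5318 and 6011 in testis and 191, 260.5 and 276 in male body (23.6-fold higher). The gene dync2i2, of the dynein motor for return transport, had 2093, 1913 and 1984 in testis and was at 4.4, 4.3 and 5.8 in male body (at least 62.3-fold higher). Increases at the ciliary base were 42.6-fold for mks1 of the transition zone, 34.2-fold for cby1 of the basal body and 7.17-fold for the centriolar gene cep43. The lower genes were arl3l1 and arl3l2, relatives of a small GTPase that releases lipid-linked cargo in cilia. For arl3l1, signals were 4.2, 17.4 and 22.9 in testis and 151, 221 and 151 in male body (at least 5.36-fold lower). The gene arl3l2 had 44.1, 14.2 and 39.1 in testis and 136, 254 and 211 in male body (5.09-fold lower). The gene ift57 could not be read, with 2553, 2920.3 and 1974 in testis and 7500.5, 6688 and 37.1 in male body, since male body array 3 was near the floor and the other male body arrays were above the testis.

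Most genes for the duplication and division of the genome were higher. Of 52 genes of DNA replication, 51 were higher (98.1%), 45 of them by at least 4-fold, and 1 was not called, with a median of 2.67. The gene cdc45, of the replicative helicase, had 1635, 1162 and 1372 in testis and 54.4, 34 and 77.3 in male body (26.3-fold higher). For gins3, of the same complex, signals were 1942, 1166 and 1601 in testis and 106, 74.9 and 87.3 in male body (17.3-fold higher). The helicase core gene mcm2 had 3087, 3141 and 3228 in testis and 543, 611 and 447 in male body (5.96-fold higher). The helicase genes were above the floor on every male body array. The sliding clamp gene pcna had 9291, 7528 and 10545 in testis and 3722, 2939 and 2756 in male body (2.90-fold higher). The genes rrm2l and dut, for a ribonucleotide reductase subunit and the dUTPase, which supply and clean the pool of DNA precursors, were 9.43-fold and 6.77-fold higher. The gene rrm2b, for the reductase subunit of resting cells in mammals, was not called (log2 difference -0.82, adjusted p = 0.13), but was lower with the replicate number as a block (adjusted p = 0.021).

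Of 97 genes of mitosis, cyclins and the kinetochore, 84 were higher (86.6%), 3 were lower (5 with the replicate block) and 10 were not called, with a median of 3.22. For birc5a, of the chromosomal passenger complex, signals were 5901, 5425 and 5889 in testis and 255, 192 and 229 in male body (25.6-fold higher, adjusted p = 8.4e-07). The spindle checkpoint gene mad2l1 had 5698, 5057 and 7138 in testis and 238, 242 and 259 in male body (24-fold higher). The M-phase cyclin gene ccnb1 had 3349.6, 3408 and 3597 in testis and 202, 189.7 and 136 in male body (19.9-fold higher). For all 3 genes every testis array was above every male body array. The genes prc1b and racgap1, which act in the cleavage of the cell, were 63-fold and 53.1-fold higher, and ccnb3, another M-phase cyclin, was 28.7-fold higher. The D-type cyclin gene ccnd1, which links growth signals to entry into the cycle, ran the other way with 271, 328 and 213 in testis and 789.5, 896 and 824 in male body (3.13-fold lower, adjusted p = 0.0003). Also lower were anapc16 (-0.54), of the anaphase promoting complex, and the kinase gene plk3 (-1.07), which was not called without testis array 1 or 3 or male body array 2 or 3 (log2 differences of -1.01 to -0.85 then). The gene kif20a, for a kinesin of the late spindle, was not called (log2 difference -0.66, adjusted p = 0.15), but the call was made with the replicate block (adjusted p = 0.017).

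Of 59 DNA repair genes, 53 were higher (89.8%), none was lower and 6 were not called, with a median of 2.29. The name atrn, left out of this list after the values were seen, was lower. For rad54l, whose product acts in recombination, signals were 1036, 986 and 1029 in testis and 59.9, 29 and 44.7 in male body (23.1-fold higher). The gene xrcc1, for a scaffold of single-strand break repair, had 981, 1212 and 1843 in testis and 35.9, 50.6 and 84.1 in male body (24.3-fold higher). For unga, whose product removes uracil from DNA, signals were 2329, 2171 and 2611 in testis and 180.1, 105 and 97.2 in male body (19.3-fold higher). Recombination, single-strand break repair and base excision each had a member that was higher on every testis array. The gene rnf8, for a ubiquitin ligase that acts in mouse spermatids, was 11.1-fold higher, and xrcc6, of end joining, 5.1-fold higher.

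Transcripts of RNA processing and protein turnover were higher by smaller amounts. Of 91 splicing factors and hnRNPs, 69 were higher (75.8%), 3 were lower and 19 were not called, with a median of 1.03. The RNA helicase gene ddx39b had 3258, 2912 and 2719 in testis and 248, 285 and 229 in male body (11.7-fold higher). For snrpd1, for a core protein of the small nuclear ribonucleoproteins, signals were 6210.2, 5373 and 6604 in testis and 1331, 1448 and 1313 in male body (4.43-fold higher). The lower members were hnrnpa1b, hnrnpua and srsf1a, at -0.55, -0.80 and -0.47, and each lost its call when single arrays were left out. The gene hnrnpa1b was not called without testis array 2 or 3 or male body array 2 or 3 (log2 differences of -0.56 to -0.40 then). The gene hnrnpua was not called without testis array 1 or 3 or male body array 2 or 3 (log2 differences of -0.84 to -0.60 then). The gene srsf1a was not called without testis array 1 or male body array 1, 2 or 3 (log2 differences of -0.48 to -0.37 then). The count of lower genes was 1 without testis array 3 and 0 without male body array 2 or 3.

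Of 49 proteasome genes, 35 were higher (71.4%), 6 were lower and 8 were not called, with a median of 0.83. The catalytic subunit gene psmb7 had 6149, 5688 and 6556 in testis and 1738, 2567 and 1422 in male body (3.31-fold higher). The genes psmd5 and psmd9, chaperones of the regulatory particle, were 4.86-fold and 4.24-fold higher. The lower members included psmb9a, psmb10, psmb12, psmb13a and psme2. The genes psmb9a, psmb10 and psme2 belong to the immunoproteasome and its activator, which cut peptides for antigen presentation. For psme2, signals were 671, 612 and 731 in testis and 1833, 1936 and 2133 in male body (2.93-fold lower). The gene psmb9a had 295, 419.8 and 404 in testis and 694, 892 and 738 in male body (2.09-fold lower). For both, every testis array was below every male body array.

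The direction of some shared machinery depended on how the arrays were scaled. Of 74 cytosolic ribosomal protein genes, 2 were higher, 62 were lower (83.8%) and 10 were not called with the deposited scaling, with a median of -0.49, but with quantile normalization 41 were higher and none was lower, with a median of 0.26. For rplp0, of the ribosomal stalk, signals were 16938, 18806 and 17492 in testis and 31891, 27330.1 and 27108 in male body, 1.62-fold lower as deposited and 0.12 higher in log2 after quantile normalization. The higher members as deposited were rpl7l1 and rps27l, relatives of ribosomal proteins. The gene rpl7l1 had 2224, 1946 and 3049.8 in testis and 603, 1059.8 and 1108 in male body (2.65-fold higher). For rps27l, signals were 4056, 5726 and 4762 in testis and 2879, 2078 and 1135 in male body (2.54-fold higher).

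Of 87 genes of oxidative phosphorylation, which makes ATP in mitochondria, 5 were higher, 64 were lower (73.6%) and 18 were not called, with a median of -0.77. Under quantile normalization 8 were higher and 40 lower, with a median of -0.34. The ATP synthase gene atp5f1b had 7482, 7888 and 7573 in testis and 17529.6, 15664 and 17015 in male body (2.19-fold lower), a call that was lost under quantile normalization. The gene cox4i1l, for a cytochrome c oxidase subunit, had 541, 177 and 401 in testis and 4475, 3463 and 4608 in male body (12.3-fold lower), and its call held. For cox6b1, of the same complex, signals were 1041, 764 and 688 in testis and 5043, 5071 and 3577 in male body (5.51-fold lower). Of the 5 higher genes, ndufaf6, ndufaf2, sdhaf2 and sdhaf3 encode factors that assemble complexes I and II, and cox6a1 encodes a subunit of cytochrome c oxidase. The gene ndufaf6 had 666, 562 and 719 in testis and 329, 333 and 311 in male body (1.99-fold higher). The gene sdhaf3 was not called without testis array 2 or 3 or male body array 2 or 3 (log2 differences of 0.60 to 0.70 then), and the count of higher genes fell to 3 without male body array 2 or 3. Of 59 mitochondrial ribosomal protein genes, 21 were higher (35.6%), 5 were lower (8.47%) and 33 were not called. The higher share is near that of all genes (35.5%), and the lower share is under that of all genes (29.3%). Their median was 0.25, and the lower count was 2 or 3 when any array but testis array 2 was left out.

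**Figure D4:**
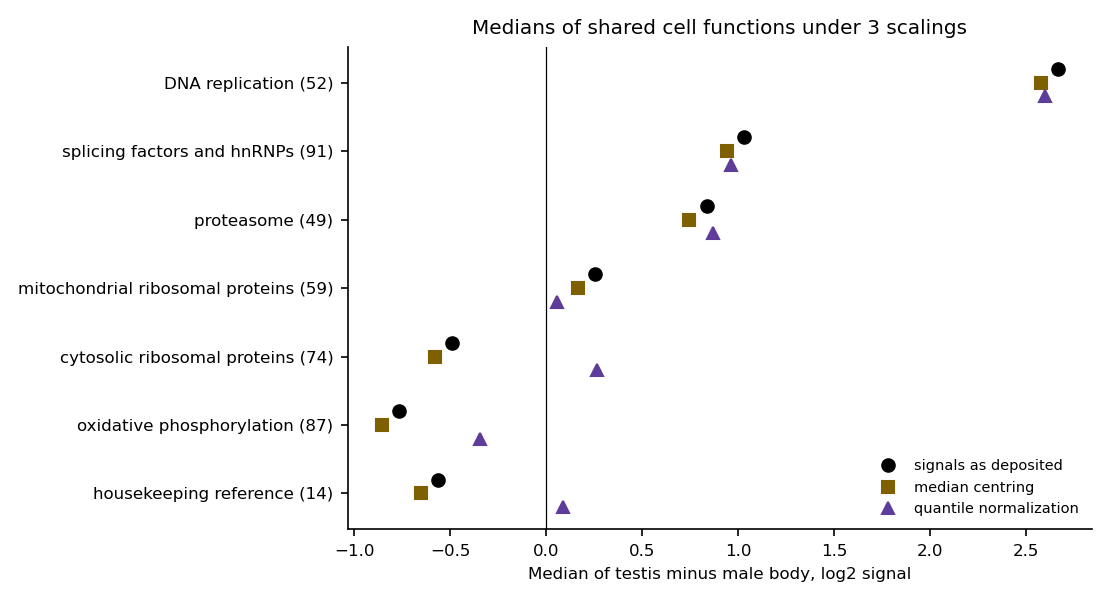
Median difference, testis minus male body in log2 signal (horizontal axis), of 7 lists of general cell functions, with the number of genes tested in brackets. The medians are for signals as deposited (circles), after median centring (squares) and after quantile normalization (triangles). The medians of cytosolic ribosomal proteins and of the housekeeping genes change sign between scalings, and those of DNA replication, splicing and proteasome stay positive.

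Several families held members on both sides, as all genes together did (35.5% higher, 29.3% lower). Among 13 alpha and beta tubulins, 5 were higher (38.5%), 5 were lower (38.5%) and 3 were not called, not far from those shares. The alpha tubulin gene tuba7l had 12091, 13690.2 and 12854 in testis and 135, 137 and 99.3 in male body (105-fold higher). The beta tubulin gene tubb2 had 39.5, 50.7 and 30.2 in testis and 625, 458 and 503 in male body (13.1-fold lower). Of 6 creatine kinases, which buffer ATP, 1 was higher (16.7%) and 5 were lower (83.3%), each of the 5 by at least 4-fold. The brain-type gene ckba had 13428, 15348 and 13747 in testis and 3446, 1905 and 3324 in male body (5.06-fold higher), while ckmt2a, a mitochondrial muscle form, was 219-fold lower. Parvalbumins, calcium buffers of fast muscle, had 8 lower members of 9 (88.9%). The higher one was pvalb6, with 8341, 6712 and 6359 in testis and 309, 388 and 279.5 in male body (22-fold higher), which was also the 1 higher member of the skeletal muscle list. Among 18 glycolytic genes, which include aldolases, 14 were lower (77.8%) and 2 were higher (11.1%). The gene eno4, for an enolase of the mammalian sperm tail, had 3052, 2604 and 1850.0 in testis and 69.5, 30.6 and 50.5 in male body (50.8-fold higher). The muscle mutase gene pgam2 had 11.3, 42.3 and 53.6 in testis and 14697, 6896 and 8935 in male body (232-fold lower).

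Of 16 heat shock proteins of the 70 and 90 kDa families, 5 were higher, 4 were lower and 7 were not called. These counts are near the shares of all genes (35.5% higher, 29.3% lower), so they do not set the family apart. At the upper end hspa8b had 3336, 3156 and 3858 in testis and 289, 387 and 365 in male body (9.98-fold higher), and at the lower end hsc70 had 178, 93 and 97.3 in testis and 4824, 4141 and 4931 in male body (39.4-fold lower). Of 19 factors of the messenger RNA cap complex, 9 were higher (47.4%) and 3 lower (15.8%). For eif4e1b, for a germline form of the cap-binding protein, signals were 2332, 2084 and 2569 in testis and 5, 10.1 and 10 in male body (at least 72.5-fold higher). The inhibitor gene eif4ebp3l differed by -1.14 and was not called without testis array 1 or 3 or male body array 2 or 3 (log2 differences of -1.09 to -0.85 then). Of 5 poly(A) binding proteins, which coat the tail of messages, 3 were higher and 2 were lower (1 lower with the replicate block). The gene pabpn1l had 601, 563 and 576 in testis and 34.9, 44.9 and 44.9 in male body (14-fold higher), and pabpc4 had 360.2, 232 and 318 in testis and 7267, 8416 and 7316 in male body (25.6-fold lower). All 6 dynein light chain genes were higher. For dynlt5, chosen after its values were seen, signals were 3622, 3877 and 4093 in testis and 61.5, 40.7 and 25.2 in male body (89.5-fold higher).

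Of 8 histone genes, 3 were higher (37.5%), 1 was lower (12.5%) and 4 were not called, beside 35.5% higher and 29.3% lower of all genes. The histone variant gene h2az2b had 16296, 15279 and 15564 in testis and 2768, 2476 and 2206 in male body (6.35-fold higher). The linker histone gene histh1l1 had 4026, 2871 and 2486 in testis and 6707, 5255 and 6211 in male body (1.97-fold lower, a call lost under quantile normalization). High mobility group genes ranged from 3.04 for hmgb2b to -1.39 for hmgb3a. Importins, carriers of nuclear proteins, included kpna2, with 5272, 5049.5 and 4427 in testis and 713, 502 and 409 in male body (9.30-fold higher), and kpna3 (2.07-fold lower). Connexins, the subunits of gap junctions, had 2 higher (15.4%) and 7 lower (53.8%) members. The gene gjb9b had 1186, 462 and 541 in testis and 48.8, 53.8 and 72.8 in male body (11.6-fold higher), with testis array 1 above the other testis arrays, and gja13.1 was at least 33.5-fold lower. Of 13 creatine, glucose and monocarboxylate carriers, 3 were higher (23.1%) and 9 were lower (69.2%). Among them slc2a10 was 8.70-fold higher and slc16a12b 9.99-fold lower. Of 26 genes of protein phosphatase 1 and its regulators, 8 were higher (30.8%) and 11 were lower (42.3%). The gene ppp1r42, for a regulatory subunit of this phosphatase, was 32.7-fold higher, and ppp1r3ca, which targets the phosphatase to glycogen, was 9.63-fold lower. The 10 genes for 14-3-3 proteins, adaptors of phosphorylated proteins, had 1 higher, 5 lower and 4 uncalled members, from 0.91 for ywhabb to -3.15 for ywhag1.

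**Figure D5:**
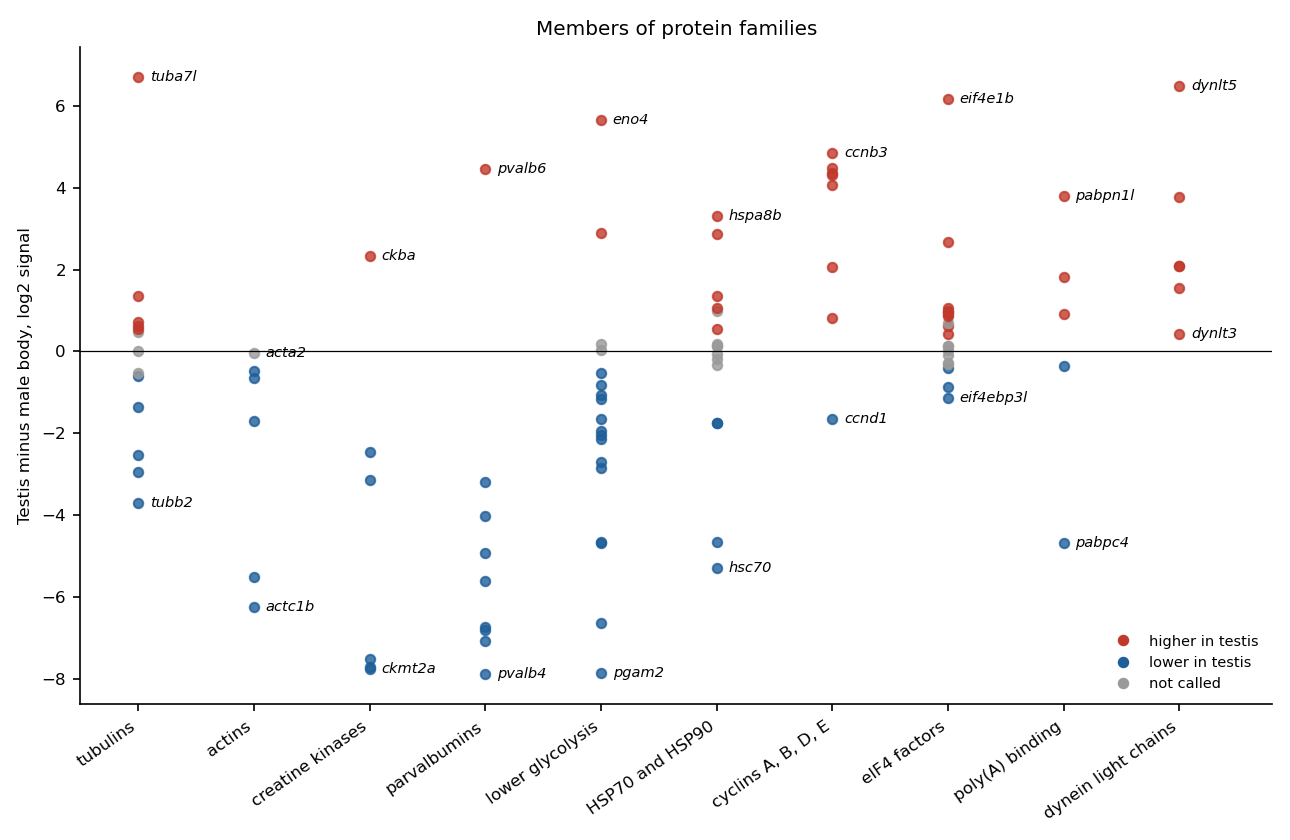
Testis minus male body in log2 signal (vertical axis) for the measured members of 10 protein families, with 1 point per gene, red where higher in testis, blue where lower and grey where not called, and the highest and lowest member of each family named. Called members of the tubulins, creatine kinases and parvalbumins lie on both sides of 0, and all 6 dynein light chains lie above it. The family labelled lower glycolysis also holds aldolases.

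Transcription factors of the Sox, Dmrt and Fox families were lower more often than higher, with 9 higher (20.5%), 18 lower (40.9%) and 17 not called. The M-phase regulator foxm1 had 4512, 5236 and 4287 in testis and 5.7, 61.8 and 66.1 in male body (91.8-fold higher). The gene dmrt1, for a factor of male development, had 5095, 4512 and 5395 in testis and 126, 56.6 and 121 in male body (52.4-fold higher). The forebrain gene foxg1b had 5.6, 26.1 and 14.6 in testis and 274, 657 and 466 in male body (at least 13.7-fold lower). Nuclear receptors had 3 higher (7.89%), 17 lower (44.7%) and 18 uncalled members. The clock repressor gene nr1d2a had 82.6, 227 and 128 in testis and 779, 1317 and 1406 in male body (8.45-fold lower). The estrogen receptor gene esr1 was higher by 0.79 but was not called without testis array 2 or 3 or male body array 1 or 3 (log2 differences of 0.56 to 0.87 then).

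Among genes of the somatic cells of the testis, a few hormone and enzyme genes differed strongly and the remainder were mixed. In the list of Sertoli cell and testis determination genes, 6 of 19 were higher (31.6%), 6 were lower (31.6%) and 7 were not called. These counts are near the shares of all genes (35.5% higher, 29.3% lower). For gsdf, for a gonadal growth factor of fish Sertoli cells, signals were 3914, 6609 and 8007 in testis and 78.7, 82 and 91.5 in male body (70.5-fold higher), lowest on testis array 1. The gene amh, for the anti-Müllerian hormone, had 2111, 2897 and 1856 in testis and 39.1, 29.8 and 33.2 in male body (64.9-fold higher). The FSH receptor gene fshr had 233, 154 and 29.9 in testis and 15, 52.7 and 66.5 in male body and was not called (adjusted p = 0.21), and sox9a was at the floor on all 6 arrays. The groups overlapped for fshr, and without testis array 3, where it was under the floor, it was called higher (log2 difference 1.98 then, against 1.12 with all arrays). The lower members included clu, a secreted chaperone, with 391, 434 and 493 in testis and 2689, 2376 and 3433 in male body (6.40-fold lower), ptgdsb.1, a prostaglandin D synthase (-3.21), and the neural factor sox3 (-2.47). The epithelial keratin gene krt18a.1 was not called (-0.23). The list median of -0.0037 changed sign with a floor of 16, quantile normalization or the omission of testis array 1 or 3.

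For Leydig cells and androgen synthesis, 5 of 13 genes were higher (38.5%), 4 were lower (30.8%) and 4 were not called. This too is near the shares of all genes (35.5% and 29.3%). The median of -0.30 became 0.37 when only brighter probe sets, averaging 200 or more in a group, were kept. The gene cyp17a1, for the 17-hydroxylase on the way to androgens, had 2220.0, 3544 and 4488 in testis and 29.7, 4 and 31.5 in male body (at least 103-fold higher). The gene star, whose product brings cholesterol into mitochondria, had 9179.8, 9463 and 8716 in testis and 365, 893 and 858 in male body (13.9-fold higher). The gene cyp11c1, for steps towards 11-ketotestosterone, the main androgen of fish, had 1703, 1689.8 and 1405 in testis and 103, 68.8 and 126 in male body (16.5-fold higher). The testis exceeded the male body on every array for these 3 genes. The gene hsd11b2, whose product oxidises 11-hydroxysteroids, had 4205, 7052 and 10638 in testis and 2189, 3657 and 4325 in male body. The groups overlapped, array 1 was lowest and array 3 highest in both tissues, and the gene was not called without testis array 2 or 3 or male body array 1 or 2 (log2 differences of 0.74 to 1.15 then), whereas its adjusted p was 0.00061 with the replicate number as a block. Lower members were srd5a2a, a steroid 5-alpha-reductase gene (12.2-fold lower), hsd20b2 (-2.59), hsd3b7 (-1.25), of bile acid synthesis, and hsd17b3 (-1.49). The gene hsd17b3 was not called without testis array 1, 2 or 3 or male body array 2 or 3 (log2 differences of -1.60 to -1.12 then).

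Many genes of the oocyte list were also higher in the testis than in the male body. Of 31 tested, 20 were higher (64.5%), none was lower and 11 were not called, with a median of 1.53, and 9 of the 31 were at the floor on all male body arrays. The count fell to 12 with a floor of 100 and to 9 when only probe sets averaging 200 or more in a group were kept. The gene org, for oogenesis-related gene, had 2787, 2205 and 2550.1 in testis and 54.5, 73.5 and 13.8 in male body (49.6-fold higher). The gene zp3d.2, for an egg coat protein, had 519, 649 and 624 in testis and 13.3, 7.1 and 5 in male body (at least 18.6-fold higher). For zar1l, of a family of translational regulators in eggs, signals were 575, 515 and 404 in testis and 7.9, 12.1 and 13.9 in male body (at least 15.4-fold higher). These genes were at or near the floor in male body. The maternal transcription factor gene nanog had 547, 454 and 498 in testis and 61.1, 38.9 and 41.4 in male body (10.8-fold higher), and buc, the organiser of germ plasm, was 4.46-fold higher. The oocyte linker histone gene h1m (0.28) and the egg coat gene zp3a.2 (-0.03) were near the floor in both groups and not called.

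Skeletal muscle was among the tissues with the largest losses. Of 80 genes of muscle contraction, 1 was higher, 69 were lower (86.3%), 60 of them by at least 4-fold, and 10 were not called, with a median of -4.15. The fast troponin gene tnni2a.3 had 45.9, 41 and 60.2 in testis and 17804, 17859 and 18929.8 in male body (376-fold lower, adjusted p = 2.2e-07). The muscle creatine kinase gene ckma had 109.6, 188 and 178 in testis and 29986, 27638 and 27624 in male body (184-fold lower). The gene pvalb4, for a parvalbumin, had 118, 88.1 and 185 in testis and 34484, 24169 and 31365 in male body (238-fold lower). The testis arrays were 2 orders of magnitude below the male body arrays for these 3 genes. The gene actc1b, for a sarcomeric actin, was 75.6-fold lower, and atp2a1, the calcium pump of the sarcoplasmic reticulum, 17.1-fold lower. The genes mylpfa, myl1 and myl10, for light chains of muscle myosin, were 264-fold, 232-fold and 226-fold lower, and ckmb, for another muscle creatine kinase, 210.2-fold lower. Among 8 heart genes 6 were lower. The heart myosin light chain gene myl7 had 19.8, 30.6 and 29.6 in testis and 7082, 5935 and 8193 in male body (at least 219-fold lower). The gene cmlc1, for another cardiac light chain, had 13.4, 20.1 and 17.4 in testis and 2809, 2231 and 3263 in male body (at least 85.5-fold lower). The cardiac factor genes nkx2.5 (-0.04) and tbx5a (-0.24) were near the floor in both groups and not called.

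Of 109 genes for plasma proteins and metabolism of the liver, 3 were higher, 87 were lower (79.8%), 74 of them by at least 4-fold, and 19 were not called, with a median of -3.46. For apoea, for an apolipoprotein E, signals were 33.7, 57.6 and 23 in testis and 29311, 18809 and 14340.2 in male body (503-fold lower). The gene tfa, for transferrin, which carries iron in plasma, had 1719.9, 2879 and 3098 in testis and 31548, 24688 and 24735 in male body (10.8-fold lower). For fabp10a, for the fatty acid binding protein of hepatocytes, signals were 449, 138 and 2316 in testis and 25375, 9243 and 24301 in male body (34.2-fold lower). The testis arrays were unequal for fabp10a, with array 3 the highest, and array 2 was the lowest in both tissues. The gene apoa2, for a lipoprotein of plasma, had 1823, 2206 and 5432 in testis and 33899, 29317 and 29054 in male body (11-fold lower), again with testis array 3 the highest. The apolipoprotein A-IV gene apoa4b.2 was 147-fold lower, and fabp1b.1, for another fatty acid binding protein, which no list held, 238-fold lower. The part of testis array 3 in the liver differences was not tested beyond its omission. Higher in the testis was cyp2p10, a cytochrome P450 gene, with 1565, 1417 and 1341 in testis and 242, 119 and 169 in male body (8.50-fold higher). The alpha-2-macroglobulin genes a2m3a (1.39) and a2m3b (1.43) were higher as well, but a2m3a was not called without testis array 1 or 2 or male body array 1 or 2 (log2 differences of 1.04 to 1.31 then).

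The pancreas list held islet hormone genes and the gene pdx1 beside digestive enzymes. Its median was -1.98, with none of 29 genes higher, 25 lower (86.2%), 14 of them by at least 4-fold, and 4 not called. The islet hormone genes given below are among these 14. The trypsinogen gene prss1 had 6102, 2492 and 2492 in testis and 11569.7, 12835 and 11920.0 in male body (3.60-fold lower). The carboxypeptidase gene cpa5 had 3041, 684 and 512 in testis and 6811, 6996 and 4036 in male body (5.65-fold lower). The elastase gene ela3l had 2521, 944 and 954 in testis and 4275, 5695 and 4692 in male body (3.69-fold lower). Testis array 1 was the highest of the testis arrays for each of these enzymes, and its part in the differences was not tested beyond its omission. The calls of prss1, cela1.6, ctrb.1 and ctrl were lost under quantile normalization, and ctrl was also not called without testis array 3 or male body array 1 (log2 differences of -2.20 to -2.09 then). Insulin (ins), the islet hormone, was under the floor on all testis arrays, with 5.1, 5.2 and 3.8 in testis and 2581, 1555 and 2915 in male body (at least 70.9-fold lower), and the somatostatin genes sst1.1 and sst2 were 12.5-fold and 8.25-fold lower.

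The intestine had the lowest median of the 30 lists at -4.48, with 20 of 21 genes lower (95.2%), 18 of them by at least 4-fold, and none higher. Of the 21 genes, 6 were at the floor on all testis arrays, so the filter left no way for these to be higher. The chitinase gene chia.1 had 34.5, 11.1 and 15.8 in testis and 17476, 16886 and 16240.4 in male body (514-fold lower, adjusted p = 2.2e-07), and the chitinase genes chia.3 and chia.2 were 329-fold and at least 286-fold lower. The intestinal fatty acid binding protein gene fabp2 had 13.1, 37.2 and 24.6 in testis and 13987, 14118 and 10474 in male body (379-fold lower). For vil1, for villin of the brush border, signals were 23.9, 18 and 16.9 in testis and 1798, 1867 and 1109.7 in male body (at least 48.4-fold lower). These genes were at or near the floor in the testis, whereas rbp2a, a retinol binding protein gene, was not, with 1938, 2550.5 and 2213 in testis and 20289, 15667 and 12754 in male body (7.18-fold lower). The homeobox gene cdx4 was not called (-0.32).

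Of 73 genes of skin, scales and epithelial keratins, 2 were higher, 60 were lower (82.2%) and 11 were not called, with a median of -2.08. Of the names left out of this list after the values were seen, cldn11a, cldn12, cldn15b, tagln and tagln3b were higher. The left-out names cldn10l2, cldn15la, kera and tagln2 were lower. The keratin gene krt4 had 3422, 3477 and 2922 in testis and 19021, 16769.5 and 15855 in male body (5.26-fold lower). The gene krt5, of the basal epidermis, had 1106, 4756 and 3615 in testis and 20139, 19991 and 21036 in male body (7.64-fold lower), with testis array 1 the lowest. The galectin gene lgals2b had 16.3, 66.1 and 25.1 in testis and 10068, 11316 and 6595 in male body (223-fold lower). The keratins were far above the floor on every testis array, and lgals2b was near it. The gene krt8, of simple epithelia, was 1.83-fold lower as deposited, a call lost under quantile normalization. The higher genes were pkp4, for a plakophilin of cell junctions, with 519, 437 and 440.4 in testis and 211, 199 and 221 in male body (2.21-fold higher), and s100a1 (0.74), a calcium-binding protein gene that was not called without testis array 1 or 2 or male body array 1, 2 or 3 (log2 differences of 0.58 to 0.78 then).

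Of 71 genes of bone, cartilage and extracellular matrix, 5 were higher (7.04%), 46 were lower (64.8%) and 20 were not called, with a median of -1.29. The type I collagen gene col1a1a had 2644, 1568 and 2183 in testis and 27316, 6139 and 23608 in male body (7.59-fold lower). The type X collagen gene col10a1a had 74.8, 53 and 471 in testis and 13718, 1397 and 10338 in male body (47.3-fold lower). The gene spp1, for osteopontin, a protein of mineralised tissue, had 5.3, 8.4 and 6.3 in testis and 1763, 345 and 1404 in male body (at least 29.6-fold lower). Male body array 2 was the lowest of the male body arrays for all 3 genes. The gene col10a1b, for the duplicate of col10a1a, had 465, 45.6 and 1896 in testis and 16648, 985 and 15185 in male body, so that array 2 was lowest in both tissues. It was called lower (-4.20, adjusted p = 0.045) but not without testis array 1 or 2 or male body array 1 or 3 (log2 differences of -4.42 to -2.74 then), and its adjusted p was 7.1e-05 with the replicate block. The gene sparc, for a collagen-binding protein, had 2529.7, 1731 and 3527 in testis and 16171, 4159 and 13994 in male body (3.94-fold lower) and was not called without male body array 3 (log2 difference -1.72 then). The part of testis array 2 and male body array 2 in these differences was not tested further.

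The matrix genes higher in the testis were col12a1b, for a collagen that bridges fibrils, plod3 and p4ha2, for enzymes that modify collagen, the laminin gene lamb1a and the fibulin gene fbln1. For col12a1b, signals were 3616, 3546 and 3392 in testis and 1040.5, 1098 and 817 in male body (3.60-fold higher). The genes plod3, p4ha2 and lamb1a were 2.84-fold, 2.60-fold and 2.39-fold higher. The fbln1 probe set with the highest signal had 292, 309 and 239 in testis and 103, 40.4 and 74.4 in male body, but another probe set of fbln1 was called lower, so that its direction is not settled.

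Of 107 genes of brain, nerve and myelin, 10 were higher (9.35%), 62 were lower (57.9%) and 35 were not called, with a median of -1.02, and 17 were at the floor on all testis arrays. Ependymin (epd), a glycoprotein of the fish brain, had 4.2, 19.1 and 22 in testis and 13462, 15484 and 10952 in male body (at least 411-fold lower). Myelin basic protein (mbpa) had 19.5, 50.1 and 57.1 in testis and 6674, 7466 and 6268 in male body (151-fold lower). The synaptic gene snap25a had 72.3, 126 and 159.6 in testis and 1924, 3332 and 2276 in male body (21.6-fold lower). Ependymin was under the floor on every testis array, and snap25a was above it on all of them. The glutamate transporter gene slc1a2b was 49.7-fold lower. Several genes of this list were higher in the testis. The gene kcnn1b, for a calcium-activated potassium channel, had 1393, 1383 and 1007 in testis and 73.2, 8.9 and 37.9 in male body (28-fold higher). For marcksb, for a linker of membrane and actin, signals were 7672, 6013 and 6577 in testis and 1279, 844 and 1028 in male body (6.49-fold higher). The gene gabrr2b, for a GABA receptor subunit, had 449.8, 378 and 421 in testis and 109, 59.1 and 93.9 in male body (4.91-fold higher).

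Of 50 genes of eye, lens and photoreceptor, none was higher, 46 were lower (92.0%) and 4 were not called, with a median of -3.42, and 17 were at the floor on all testis arrays. Of the names left out of this list after the values were seen, cry-dash, cry5, crym and rdh10b were higher and cry1a, cry3a and rdh1 lower. The lens crystallin gene crygs1 had 26.3, 10.3 and 7.1 in testis and 9293, 10864 and 10107 in male body (at least 315-fold lower). For gnat1, for the transducin of rods, signals were 50.9, 62.5 and 53.1 in testis and 2878, 3085 and 2319 in male body (49.6-fold lower). The cone phosphodiesterase gene pde6ha was 64-fold lower. The blue cone opsin gene opn1sw2 stood apart from these, with 2819, 2824 and 3319.6 in testis and 2526, 3612 and 3130.0 in male body and a log2 difference of -0.04 (adjusted p = 0.86).

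Of 22 genes of red cells and haem, 1 was higher, 15 were lower (68.2%) and 6 were not called, with a median of -1.54. The globin gene hbaa1 had 9206, 6974 and 9481 in testis and 32550.3, 18717 and 30087 in male body (3.11-fold lower). The gene alas2, for the first step of haem synthesis in red cells, had 369, 342 and 338 in testis and 2694, 982 and 3766 in male body (6.16-fold lower). The globin signal was far above the floor on every testis array, and male body array 2 was the lowest of the male body arrays for both genes. The gene uros, of the haem pathway, was 2.69-fold higher. The carbonic anhydrase gene cahz was lower (-1.51) but was not called without male body array 1 or 3 (log2 differences of -1.31 to -1.17 then).

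Of 109 immune genes, 9 were higher (8.26%), 55 were lower (50.5%) and 45 were not called, with a median of -0.81. The antigen presentation gene cd74a had 3081, 2176 and 3707 in testis and 13026, 10420.3 and 14461 in male body (4.29-fold lower). The gene lyz, for lysozyme, had 292, 225 and 229.7 in testis and 4371, 6906 and 4346 in male body (20.5-fold lower). For mpx, for the myeloperoxidase of granulocytes, signals were 38.8, 75.9 and 28.4 in testis and 1211, 838 and 421 in male body (16.5-fold lower). Each of these genes was lower on every testis array. The gene coro1a, for an actin regulator of white cells, was not called, with 825, 1153 and 513 in testis and 996, 929 and 607 in male body. The recombinase gene rag2, which joins antigen receptor genes in lymphocytes, was higher, with 419, 364 and 417 in testis and 21.5, 12.6 and 7.1 in male body (at least 12.5-fold higher, adjusted p = 6.5e-06). The gene il17rd, for a receptor that restrains growth factor signals in zebrafish, was 3.03-fold higher, and the progranulin gene grnb 4.03-fold higher. The other 6 higher genes had differences of 0.94 to 1.52.

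Of 65 genes of kidney, gill and ion transport, 7 were higher (10.8%), 35 were lower (53.8%) and 23 were not called, with a median of -0.69. The dicarboxylate carrier gene slc13a2 had 14.6, 36.2 and 29 in testis and 6205, 6704 and 3690.1 in male body (161-fold lower). The gene cdh17, for a cadherin of kidney and gut epithelium, had 62.9, 95.4 and 75.2 in testis and 2051, 3226 and 2532 in male body (33.4-fold lower). Subunits of the sodium pump differed in direction. For atp1a1a.2, signals were 34.6, 26.2 and 36.5 in testis and 833, 1358 and 719 in male body (27.2-fold lower), and atp1a1b had 1830.5, 2206 and 1737 in testis and 792, 747 and 985 in male body (2.29-fold higher). The gene pax2b, for a factor of kidney development, was higher (1.13) but was not called without testis array 1 or 2 (log2 difference 1.08 then). The count of higher genes in this list fell to 4 without testis array 1, testis array 3 or male body array 1.

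Genes often used as references were not level between the groups. Of 14, 2 were higher (14.3%), 9 were lower (64.3%) and 3 were not called, beside 35.5% higher and 29.3% lower of all genes. The median of -0.56 became 0.08 under quantile normalization, where 3 were higher and 3 were lower. For gapdh, for a glycolytic enzyme, signals were 1263, 856 and 1346 in testis and 30306, 27664 and 29462 in male body (25.7-fold lower), and it was lower under every scaling. The gene actb2, for a cytoplasmic actin, had 12734, 14963 and 13026 in testis and 20498, 21826 and 21771 in male body, 1.58-fold lower as deposited and 0.05 higher in log2 after quantile normalization. For eef1a1l1, for an elongation factor of translation, signals were 18679, 18813 and 18269.6 in testis and 31269.6, 27913 and 26778 in male body, 1.54-fold lower as deposited and 0.24 higher in log2 after quantile normalization. The direction of the last 2 genes turned with the scaling. The general transcription factor gene tbp had 945, 799.6 and 1028 in testis and 249, 249 and 257 in male body (3.65-fold higher). The gene hprt1, of purine salvage, had 319, 255 and 245 in testis and 304, 288 and 343 in male body and was not called (log2 difference -0.20, adjusted p = 0.41).

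Over all probe sets tested, 29.4% had no single gene symbol, which counts those with none and those with several. Among the 65 probe sets at least 64-fold higher in the testis, 14 (21.5%) had no single gene symbol, against 7 (9.46%) of the 74 at least 64-fold lower. Over all calls the shares ran the other way, with 17.2% of higher and 31.7% of lower probe sets lacking a single symbol. Among the named genes with the largest increase, zgc:162239, si:ch211-209a2.2, si:ch73-111k22.3 and si:ch211-121a2.2 carry only clone or project names. For zgc:162239, signals were 6752, 7379.8 and 6570.1 in testis and 7.9, 22.6 and 4.6 in male body (at least 215-fold higher). The gene si:ch73-111k22.3 had 8567, 10495 and 8011 in testis and 81.8, 48.3 and 33.4 in male body (176-fold higher). Both were at or near the floor in male body. Among the largest decreases, zgc:66156 carries such a name, with 12.7, 20.4 and 23.2 in testis and 12507, 9845 and 13965 in male body (at least 374-fold lower). The largest increases also held the microtubule-associated genes cimap1b (155-fold higher) and cimip2b (111-fold), hoatz (143-fold), whose mouse counterpart acts in motile cilia, and the small GTPase gene rab36 (130.0-fold).

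The directions also differed in how often the weaker side was at the floor. Of the 4366 probe sets higher in the testis, 178 (4.08%) were at the floor on all male body arrays, and of the 4475 lower probe sets, 448 (10%) were at the floor on all testis arrays. Of the 6124 probe sets not called, 5067 had means within 1.5-fold of each other. Several probe sets were present for 1470 genes, and 24 of these genes had probe sets called in both directions.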

How the data were processed

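RNA from testes and from the male body without testes was hybridised to the Affymetrix Zebrafish Genome Array, with 1 array per sample and 3 arrays per group. The intensities used were deposited by the authors as linear signals from GCOS 1.2 (MAS5), a Tukey biweight mean of perfect match minus contrast values, scaled so that the mean after trimming 2% at each end was the same on every array. The number of arrays limits the precision. The trimmed mean was checked on all 12 arrays.

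Of 15617 rows, 115 control probe sets were removed. Signals below 32 were set to 32, log2 was taken, and 537 probe sets at the floor on all 6 arrays were left out. The remaining 14965 were fitted with limma 3.58.1 in R 4.3.3 (lmFit, then eBayes with an intensity trend), two-sided, with Benjamini-Hochberg adjustment over all of them and a threshold of 0.05. The code of the fit was tried on simulated arrays in which few probe sets, all well above the floor, were changed. That setting differs from these data, where many probe sets were called and many lay at the floor. Python 3.11.15, pandas 2.3.3, NumPy 2.4.6 and matplotlib 3.10.9 served for tables and plots. Symbols came from the platform annotation: 10795 probe sets had 1, 135 had several and were not named, and 4572 had none here. For a gene with several probe sets, that with the highest mean log2 signal was used.

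The comparison, the lists and the families were chosen with earlier results of these data known, so that none is independent of them. List members were taken by symbol, and names that a symbol pattern had caught without belonging to the list were left out after the values had been seen, with the full set as an alternative. The genes named were drawn from the 20 probe sets that differed most in either direction among those whose groups did not overlap, from each list the 5 brightest and the 3 most different in each direction with described exceptions, the extreme members of divided families, and cell type markers. Not every gene that this rule picks is described.

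The labels number replicates 1 to 3 in each group and do not say whether equal numbers share a fish. Deviations from the group means correlated between same-numbered testis and male body arrays at 0.30 to 0.31. Between other arrays the correlations were -0.20 to -0.12. Because deviations from a group mean cancel within the group, positive values for same-numbered arrays force negative values for the others. Whether same-numbered samples shared a fish or a processing batch was not tested. A fit with the replicate number as a block was made as an alternative. Separate animals stand behind the replicates of a group. Other alternatives changed the floor, the filter, the scaling, the variance model and the arrays included, or used the methods' t-test. For the lists, a further alternative represented each gene by its probe set with the lowest mean signal. GC-RMA and perfect-match values, and promoter motifs, are not analysed here.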

Additional observations from a re-analysis of the deposited data

How the results depend on the processing

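The counts of 4366 probe sets higher and 4475 lower in the testis stayed within 1.5 times of these values under every other floor, filter, scaling and variance model tried. The lowest came from the methods' t-test on linear signals (3622 higher, 3344 lower, after Benjamini-Hochberg) and, for lower probe sets, from keeping only probe sets that averaged 200 or more in a group (3888 higher, 3227 lower). Omitting single arrays gave 3950 to 4122 higher and 3820 to 4198 lower. A fold of at least 4 left 1460 higher and 1320 lower. With the replicate number as a block there were 4530 higher and 4748 lower, and 8673 of the 8841 calls were shared. Of the genes named in the text, rrm2b and kif20a were called with the block and not without it in the main fit. The gene kif20a was called under 2 of 18 alternatives, the block among them. The block moved 27 counts of calls in lists and families, 3 of them by over 1.5 times, which were the lower genes of mitosis (5 with it, 3 without), of poly(A) binding proteins (1 and 2) and of DNA replication (1 and 0). Among the others were the lower cytosolic ribosomal (54 and 62) and immune genes (63 and 55) and the higher kidney genes (5 and 7). Of 360 genes that the naming rule picked, 319 were called, of which 246 were called under every alternative and 25 lost their call without 1 array.

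Quantile normalization turned directions among bright probe sets. The median became 0.26 for cytosolic ribosomal proteins (-0.49 as deposited), 0.084 for housekeeping genes (-0.56) and 0.19 for the Sertoli cell list (-0.0037), and the log2 difference became 0.047 for actb2, 0.19 for atp1b1a, 0.083 for cd63, 0.25 for cox6b2, 0.24 for eef1a1l1, 0.19 for rpl13a, 0.15 for rpl3, 0.36 for rpl7a, 0.12 for rplp0, 0.055 for rps2 and 0.061 for rps27a. The log2 difference of ift57, not called with all arrays (0.99), ran from -1.53 to 2.30 when single arrays were left out, and it was called lower without male body array 3. The Sertoli cell median was 0.13 with a floor of 16, and -0.21 to 0.0067 when single arrays were left out. With only the probe sets averaging 200 or more in a group, the median became 0.12 over all probe sets (-0.12) and 0.37 for the Leydig cell list (-0.30). With the names caught by a symbol pattern kept, a choice made after seeing the data, more genes were higher in the lists of skin (7 instead of 2), eye (4 instead of 0), liver (5 instead of 3) and muscle (3 instead of 1), and 5 instead of 3 were lower in mitosis, as with the replicate block. Left-out names were also called in other lists, among them those of immune, red cell, bone, brain and DNA repair genes. The cause of these changes was not tested.

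The 3 arrays of a group limit the precision of single genes, and signals near the floor carry no order.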
